A study of Arabidopsis thaliana with 36 samples.

Results

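Numbered ribosomal protein genes were described in RNA-seq of Arabidopsis thaliana leaves and roots. The members were the genes whose annotation names ribosomal protein L or S directly followed by a number and whose mean level over all 36 libraries was at least 20 FPKM (reads per kilobase of coding sequence, scaled to the depth of the library). The rule gave 247 genes of the 27444 in the deposited table, out of 304 whose annotation matched. The other 57 were below the limit, and 4 of these were listed at 0 in every library. The members were thus selected on their mean FPKM over all libraries, so that level is a description. Differences between groups were no criterion of the rule, but its mean spans both organs. A gene low in leaf could therefore pass through its root level, and the reverse. Just above the limit were AT2G19720 with a mean of 20.3 FPKM and AT1G70190 with 20.99 FPKM, and just below it were AT5G45590 with 19.7 FPKM and AT4G37660 with 19.4 FPKM.

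The genotypes were the ppsr1 T-DNA knockout (KO), 1 line chosen to represent AtPPSR1 overexpression (OE) and the parental accession Col-0 (WT). All plants, those of WT included, grew in hydroponic culture with 200 µM Pi (inorganic phosphate) for 4 weeks. They were then kept for 24 h without Pi (0 µM) or at 200 µM, and roots and mature rosette leaves were taken separately. This gave 12 groups of 3 biological replicates, each from whole organs in bulk. No source used here names the promoter of the overexpression construct, and the level of PPSR1 itself was not analysed here. The study set out to describe what PPSR1 does in plants short of a nutrient.

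A plant cell holds 3 kinds of ribosome, in the cytosol, the chloroplast and the mitochondrion. Most ribosomal proteins, including many of both organelles, are encoded in the nucleus, and cytosolic ones usually by small families of paralogous genes. Ribosome production is among the largest consumers of phosphate in a cell, because ribosomal RNA holds much of its phosphorus, and the cytosolic genes are known for high expression in growing tissue. Site II and telo-box elements are short promoter motifs known from Arabidopsis ribosomal protein genes.

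By annotation, RefSeq notes and general knowledge, 149 members encode cytosolic ribosomal proteins, 83 of the large subunit and 66 of the small one. A further 29 encode chloroplast proteins (19 large, 10 small) and 16 mitochondrial proteins (9 large, 7 small). Another 29 are of bacterial type with no organelle stated in the sources used (22 large, 7 small). The remaining 24 carry a ribosomal protein's name but are something else: 10 act in ribosome assembly, 4 are translation elongation factors, and 10 only share a domain or family name. All members lie on nuclear chromosomes, and 0 on the organelle genomes. Of the 247, 16 share over 50% of their 31-base coding words with another gene, among them AT1G58684, AT1G58983 and AT1G59359, which share 100% each, so the split of reads within such groups is uncertain.

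The 250 bases before each annotated gene start were searched on both strands for the telo-box AAACCCTA and the GGCCCA form of site II. These can share at most 1 end base. Site II below means this form alone. Site II was found before 88 of the 149 cytosolic members (59.06%) and the telo-box before 26 (17.45%). In all 27442 such windows of the genome, the shares were 13.7% and 4.49%, and in the 7498 windows of genes with at least 20 FPKM they were 17.95% and 3.36%. Of the 29 chloroplast members, 10 had site II (34.5%) and 3 the telo-box (10.3%). A pair or more of site II copies stood before 44 cytosolic members (29.5%), against 5.27% of all windows. Among cytosolic members, the median root against leaf log2 difference was 2.09 for the 17 with both motifs, 2.06 for the 71 with site II alone, 2.19 for the 9 with the telo-box alone and 1.90 for the 52 with neither. These are matches of letters, given as a description. Other forms of site II, such as TGGGCT, were not searched or marked, so the shares do not cover them.

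Windows are printed 5′ to 3′ from RefSeq, build TAIR10.1, with both motifs in capitals, chosen among members with no annotated exon in the window and at most 50% of coding words shared with another gene. The first pair are the highest cytosolic members that hold both motifs. AT5G15200 (chr5:4936430-4936679, reverse strand) encodes a small subunit protein annotated as S4, and AT3G11120 (chr3:3480770-3481019, forward strand) an L41 protein of the large subunit.
AT5G15200: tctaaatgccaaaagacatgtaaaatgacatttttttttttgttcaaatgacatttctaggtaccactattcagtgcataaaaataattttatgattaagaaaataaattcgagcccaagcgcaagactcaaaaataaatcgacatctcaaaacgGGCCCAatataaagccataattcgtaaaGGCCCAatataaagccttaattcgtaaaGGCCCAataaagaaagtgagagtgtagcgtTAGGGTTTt
AT3G11120: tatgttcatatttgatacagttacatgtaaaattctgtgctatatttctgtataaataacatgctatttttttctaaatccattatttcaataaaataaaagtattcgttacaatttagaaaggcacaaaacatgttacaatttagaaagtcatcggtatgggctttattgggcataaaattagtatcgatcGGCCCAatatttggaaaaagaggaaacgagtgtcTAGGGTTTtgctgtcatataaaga
The next pair are the highest cytosolic members of all under the same conditions. AT3G04400 (chr3:1167000-1167249, forward strand), of the L14p/L23e family, holds site II alone. AT4G39200 (chr4:18257084-18257333, forward strand), of the S25 family, holds neither in the form searched, though its window contains an unmarked tgggct.
AT3G04400: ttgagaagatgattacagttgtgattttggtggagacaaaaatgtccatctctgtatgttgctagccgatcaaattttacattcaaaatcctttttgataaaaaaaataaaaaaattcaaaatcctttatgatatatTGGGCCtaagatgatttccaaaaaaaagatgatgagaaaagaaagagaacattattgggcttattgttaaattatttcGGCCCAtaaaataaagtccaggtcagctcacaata
AT4G39200: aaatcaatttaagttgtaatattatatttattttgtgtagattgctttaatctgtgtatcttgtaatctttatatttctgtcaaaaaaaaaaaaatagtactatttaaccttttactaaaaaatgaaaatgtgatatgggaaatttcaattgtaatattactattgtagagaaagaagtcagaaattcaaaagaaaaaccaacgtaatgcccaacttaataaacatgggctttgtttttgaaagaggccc
The last pair had the largest rise and the largest fall in WT root against leaf among windows of this kind. AT2G40205 (chr2:16792623-16792872, reverse strand) encodes an L41 protein and holds both motifs. AT1G32990 (chr1:11955406-11955655, forward strand) encodes plastid L11 and holds neither.
AT2G40205: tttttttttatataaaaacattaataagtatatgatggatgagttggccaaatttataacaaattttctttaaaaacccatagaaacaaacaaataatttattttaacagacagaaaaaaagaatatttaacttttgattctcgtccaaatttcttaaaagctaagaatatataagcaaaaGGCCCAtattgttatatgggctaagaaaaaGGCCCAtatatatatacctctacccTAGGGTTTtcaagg
AT1G32990: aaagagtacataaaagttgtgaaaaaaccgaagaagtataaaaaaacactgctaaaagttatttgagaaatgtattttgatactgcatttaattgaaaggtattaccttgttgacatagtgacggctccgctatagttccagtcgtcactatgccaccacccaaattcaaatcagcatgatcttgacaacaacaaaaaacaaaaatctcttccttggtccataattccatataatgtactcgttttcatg

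Depth, read from the steps of low values, was 6680000 to 13190000 reads in leaf libraries and 2070000 to 11780000 in root libraries, with OE at 0 µM replicate 3 the shallowest. The organs matched their labels. Of 5 leaf markers such as RBCS1A and LHCB1.1, the summed level was 344 to 1489 FPKM in root libraries and 45370 to 91120 FPKM in leaf libraries. Of 6 root markers such as CASP1 and COBL9, it was 417 to 1008 FPKM in root and 1.83 to 11.4 FPKM in leaf, and none of either list was at 0 throughout an organ. Some libraries stood apart by gene length. For genes with over 4000 coding bases, the median log2 deviation from the organ's median was -1.25 in WT at 200 µM leaf replicate 2, -1.04 in OE at 0 µM leaf replicate 1, -0.88 in WT at 0 µM leaf replicate 1 and -1.23 in WT at 200 µM root replicate 2. KO at 200 µM leaf replicate 1 had 9488 genes at 0, more than any other library. Results are also given without those 4 libraries or with a length trend removed where that matters.

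The cytosolic members were abundant in both organs and several times higher in root. Their summed level was 83290 to 162600 FPKM in the 18 root libraries, with a median of 107700, and 17430 to 39000 FPKM in the 18 leaf libraries, with a median of 25050. They made up 7.67% to 11.7% of all FPKM in root and 1.52% to 3.19% in leaf. The chloroplast members went the other way, with sums of 954 to 1467 FPKM in root and 6521 to 13270 FPKM in leaf. Chloroplast members thus summed to 0.897% to 1.55% of the cytosolic sum in root and to 25.9% to 45.6% in leaf. No root library overlapped a leaf library in either sum. The large subunit's cytosolic genes summed to 1.15 to 1.27 times the small subunit's in root and to 1.06 to 1.21 times in leaf. In bulk organs, fewer cells of a type and less RNA per cell cannot be told apart.

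**Figure D1:**
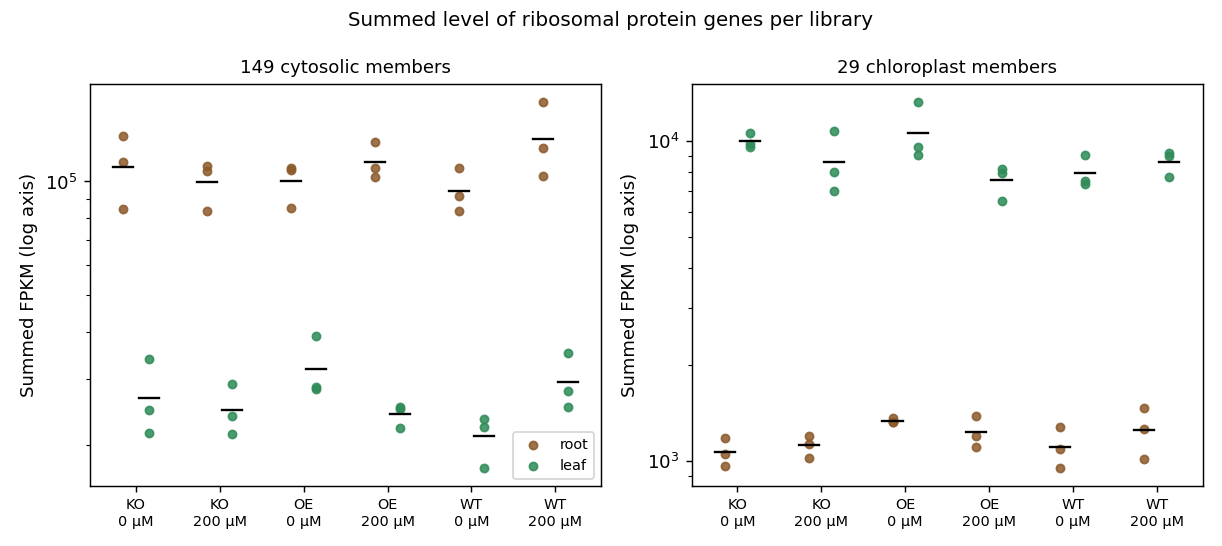
Summed FPKM on a log axis of the 149 cytosolic members (left panel) and the 29 chloroplast members (right panel) in each of the 36 libraries, by genotype and Pi level, with root in brown, leaf in green and bars at group means (n = 3). Root and leaf do not overlap in either panel, and the WT leaf libraries at 0 µM (17430 to 23480 FPKM, cytosolic) lie below those at 200 µM (25190 to 35170 FPKM).

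Root was compared with leaf in each of the 6 combinations of genotype and Pi level on the scale log2(FPKM + 1), in 1 limma fit over 19327 genes with Benjamini-Hochberg adjustment, and a gene was called at an adjusted p under 0.05. All 149 cytosolic members rose in root in all 6 comparisons. The median of all genes was also 0.67 to 0.81 log2 higher there. The cytosolic median was 1.71 to 2.24, which is 0.90 to 1.46 above that of all genes. In KO at 0 µM, 207 of the 247 members rose, where 53.1% of all genes did, and 33 fell, where 18.8% of all genes did. For KO at 200 µM, 206 rose against 56.1% of all genes and 31 fell against 17.4%. For OE at 0 µM, 208 rose against 57.1% and 31 fell against 16.9%. For OE at 200 µM, 208 rose against 55.7% and 33 fell against 17.3%. WT plants at 0 µM had 209 members higher against 56.1% and 33 lower against 17.3%, and WT plants at 200 µM had 206 higher against 51.3% and 33 lower against 18.5%.

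The classes divided sharply in this comparison. Of the 29 chloroplast members, 28 fell in root in all 6 comparisons, with class medians of -3.30 to -2.53. The 10 assembly proteins had medians of 1.76 to 2.24, close to the cytosolic ones, and 9 or 10 of them rose. Mitochondrial members had lower medians of 1.02 to 1.37, and 12 to 14 of 16 rose. Bacterial-type members with no organelle stated had medians of 1.21 to 1.60, and 26 to 29 of 29 rose. In single leaf libraries, the median level was 10.9 to 28.7 FPKM for assembly proteins. It was 15.2 to 25.3 FPKM for mitochondrial and 18.1 to 29.4 FPKM for bacterial-type members. These levels lie near the limit of 20 FPKM, so some of these members passed it through their root level. The counts of rises in these classes are thus partly set by the rule. All 4 elongation factors rose in each comparison, with medians of 0.83 to 1.33, though rescaling the libraries left 1 to 3 of them called. The 10 members that only share a name were mixed, with 3 or 4 up and 3 to 5 down. Markers of dividing cells moved with the organ: the summed level of 5 such genes, among them KNOLLE and CDKB1;1, was 104 to 205 FPKM in root and 2.41 to 19.8 FPKM in leaf, and their part in the organ difference was not tested.

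**Figure D2:**
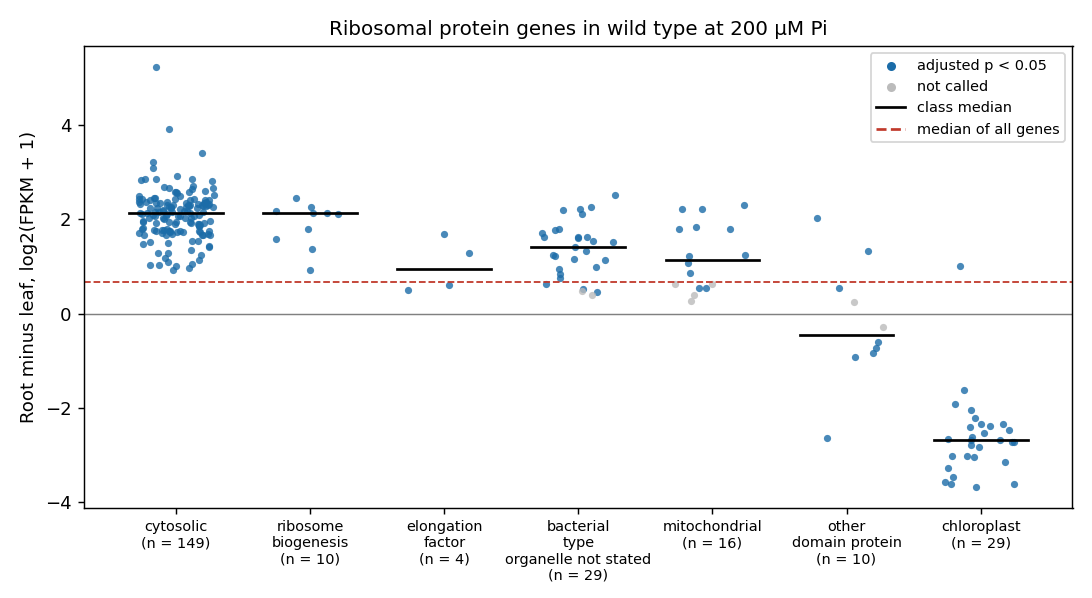
Root minus leaf difference on the log2(FPKM + 1) scale in WT at 200 µM for each of the 247 members, by class (blue: adjusted p under 0.05, grey: not called, black bar: class median, dashed line: median of all genes, 0.67). All 149 cytosolic members lie above 0, and 28 of 29 chloroplast members lie below it.

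With libraries rescaled by median-of-ratios factors, the median of all genes moved to 0.14 to 0.21. All 149 cytosolic members stayed positive in the 6 comparisons, and 113 to 146 were called, the fewest in OE at 0 µM. Of all 19327 genes, 11410 to 12080 were then called per comparison, both directions together. The split of all genes by direction is not given, so the counts of members in 1 direction have no matching share beside them. The same 28 of 29 chloroplast members were called lower in each. Fewer calls remained for the mitochondrial members, of which 5 to 9 were then higher and up to 3 lower, for those of bacterial type, of which 9 to 20 were higher, and for the elongation factors, of which 1 to 3 were higher. The direction itself turned for some mitochondrial members, since 11 to 14 of 16 were then above 0. Relative to all genes, the mitochondrial medians were 0.21 to 0.58 higher as deposited and 0.16 to 0.52 higher rescaled.

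Among cytosolic members the most abundant was AT5G20290, of the S8e family in the small subunit. It had 2151, 2872 and 4272 FPKM in WT roots at 200 µM, against 518, 744 and 443 FPKM in WT leaves at 200 µM. The root libraries all exceeded the leaf ones, with a log2 difference of 2.42 ± 0.30 (SE) and an adjusted p of 2.88e-08 (limma). AT3G04400, of the L14p/L23e family and the most abundant in the large subunit, had 1914, 3437 and 2364 FPKM in root and 542, 696 and 475 FPKM in leaf. Its log2 difference was 2.14 ± 0.27. The other leading members, AT4G27090 (L14), AT4G33865 (S14p/S29e family) and AT1G58684 (S5 family), were higher in root by 2.17, 1.77 and 1.95 on the log2 scale. AT1G33120, of the L6 family, had a smaller difference of 1.02, with 1769, 1113 and 1230 FPKM in root against 747, 624 and 623 FPKM in leaf. It shares 82.7% of its coding words with AT1G33140, so the level of either alone is uncertain.

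The largest rises in root went beyond those of the abundant genes. AT1G23410 encodes S27a, which is made as a fusion with ubiquitin. It had 48.9, 102 and 103 FPKM in WT roots at 200 µM, against 1.22, 3.52 and 0 FPKM in WT leaves, the largest difference of any member at 5.24 ± 0.47 (adjusted p of 3.02e-11, limma). It was higher in root in all 6 comparisons, so it passed the limit of 20 FPKM through its root level. AT2G40205 encodes L41, a very short protein of the large subunit, and had 379, 695 and 555 FPKM in root against 29.4, 38.4 and 34.6 FPKM in leaf. AT2G37190, of the L11 family, averaged 1042 ± 462 FPKM in root and 91.5 ± 7.65 FPKM in leaf (SD, n = 3 each), a log2 difference of 3.41. AT3G56020 and AT3G08520, also L41 genes, differed by 3.22 and 3.09 and share 81.2% of their coding words. In both, WT root replicate 2 was the highest library, at 4608 and 5696 FPKM.

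Members with the same annotation text had a range of organ differences, which was not tested between members. Among cytosolic members, 42 annotation texts were shared by 2 or more genes, 122 genes in all. Over the 6 comparisons the mean organ difference of such genes spanned a median of 0.59 log2 within a text, and under 12 texts the span exceeded 1 log2. A text can cover different proteins, as that of the L7Ae/L30e/S12e/Gadd45 family does. In the L39 family the mean difference was 1.17 for AT3G02190 and 2.90 for AT2G25210. In the L41 family it was 1.46 for AT1G56045 and 3.16 for AT2G40205. In the L11 family it was 1.67 for AT3G53430 and 3.12 for AT2G37190.

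The 5 largest falls in WT root at 200 µM were all in chloroplast members of the large subunit. RPL12-A (AT3G27830), whose bacterial counterpart forms the stalk that recruits translation factors, had 51.7, 40.4 and 65.9 FPKM in root against 625, 688 and 704 FPKM in leaf. Its log2 difference was -3.67 ± 0.20 (adjusted p of 2.33e-16, limma). RPL12-C (AT3G27850) averaged 47.4 ± 17.1 FPKM in root and 554 ± 9.53 FPKM in leaf, and the L10 family member AT5G13510 averaged 22.6 ± 2.84 FPKM in root and 290 ± 19.7 FPKM in leaf (SD, n = 3 each). RPL12-A shares 50.7% of its coding words with RPL12-C, so the level of either alone is uncertain. Plastid L11 (AT1G32990) had 12.4, 14.4 and 9.05 FPKM in root against 115, 179 and 185 FPKM in leaf, and the L1p/L10e family member AT3G63490 had 28.5, 32.7 and 25.7 FPKM against 325, 323 and 336 FPKM. None of these overlapped between organs. The most abundant chloroplast members, S17 (AT1G79850) and AT5G14320 of the S13/S18 family, fell by 2.79 and 3.02 on the log2 scale.

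A single gene annotated as plastid, AT3G17465 or RPL3P, went against its class. It had 39.2, 50.4 and 39.8 FPKM in WT roots at 200 µM, against 22.1, 24.0 and 17.2 FPKM in WT leaves, a rise of 1.00 ± 0.21 (adjusted p of 1.16e-04, limma). It rose in all 6 comparisons. AT2G43030, the other L3 gene of the class, fell to 29.5, 64.7 and 39.3 FPKM in root, against 222, 307 and 310 FPKM in leaf. The pair thus share a protein number and an annotated compartment and differed in direction. The compartment of AT3G17465 rests on its annotation and was not tested. Its rise of 1.00 to 1.66 over the 6 comparisons lay nearer the mitochondrial class medians (1.02 to 1.37) than the chloroplast ones (-3.30 to -2.53).

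Mitochondrial members differed less between organs. MRPL11 (AT4G35490), the most abundant, had 214, 228 and 294 FPKM in root against 134, 113 and 98.9 FPKM in leaf in WT at 200 µM, a log2 difference of 1.08 ± 0.25 that was not called after rescaling (0.55). AT3G01740, annotated L37, had 115, 183 and 124 FPKM in root against 109, 113 and 94.8 FPKM in leaf and was not called, with an adjusted p of 0.124 (limma) and a difference of -0.14 after rescaling. AT2G21290 (S31) averaged 199 ± 86.9 FPKM in root and 104.5 ± 29.02 FPKM in leaf (SD, n = 3 each), and after rescaling it lay above 0 in 1 of the 6 comparisons.

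Members that are no ribosomal proteins were led by elongation factors. AT5G19510, a subunit of the exchange factor eEF1B, had 803, 1381 and 861 FPKM in WT root at 200 µM against 268, 400 and 260 FPKM in leaf. AT1G30230, another eEF1B subunit, differed by 1.29 log2, and AT1G56070, the translocase eEF2, by 0.50, less than the median of all genes, and by -0.03 after rescaling. AT1G68660, an adaptor of the chloroplast Clp protease that carries an L12 name, fell to 28.8, 82.9 and 31.8 FPKM in root, against 264, 301 and 251 FPKM in leaf. Among the assembly proteins, AT4G12600 had the largest difference, at 2.44.

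Other genes of the translation machinery, listed by locus, followed the organ as well. All 14 tested genes of ribosomal RNA processing rose in root in all 6 comparisons, with medians of 2.05 to 2.39, and so did the 7 further elongation factor genes, with medians of 0.83 to 1.55, where 51.3% to 57.1% of all genes rose. After rescaling, 10 to 13 and 1 to 7 of them were called higher, with medians of 1.40 to 1.80 and 0.30 to 0.90. Of all 19327 genes, 11410 to 12080 were then called per comparison, both directions together. That number is not split by direction, so the counts of list genes called in 1 direction have no matching share beside them. The elongation factors were lowest in WT at 200 µM in both scalings. In WT at 200 µM, fibrillarin FIB2, which methylates ribosomal RNA, averaged 120 ± 17.1 FPKM in root and 9.61 ± 3.91 FPKM in leaf, and NOP56 and GAR1, proteins of the small nucleolar ribonucleoproteins, differed by 2.48 and 2.74. Of 8 genes of TOR signalling, the kinase pathway that promotes ribosome production, 3 to 7 rose and 0 or 1 fell, with medians of 0.12 to 0.88, the lowest in WT and the highest in KO, both at 200 µM. After rescaling 1 or 2 rose and 1 or 2 fell, with medians of -0.36 to 0.22. In WT at 200 µM, S6K2, a ribosomal protein S6 kinase, averaged 18.6 ± 1.68 FPKM in root and 7.22 ± 2.08 FPKM in leaf (SD, n = 3 each). In the 18 comparisons of Pi level or genotype within an organ, 0 genes of these lists were called (limma). The highest count with an unadjusted p under 0.05 was taken for each list. For ribosomal RNA processing it was 7 of 14, in the OE minus WT Pi response in leaf, against 8.24% of all genes. For elongation factors it was 5 of 7, in the WT leaf Pi response, against 6.22%. For TOR signalling it was 5 of 8, in the WT root Pi response, against 20.1%.

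Removal of Pi for 24 h called 0 of the 247 members in leaf in any genotype (limma over 16489 genes). Of all genes, 1.1% were called in KO leaf, 0.801% in OE leaf and 0.00606% in WT leaf. At an unadjusted p under 0.05, the members numbered 31 in KO, 66 in OE and 67 in WT, or 12.6%, 26.7% and 27.1% of them, against 14.6%, 8.45% and 6.22% of all genes. The sign differed between OE and WT. Of these members, 63 of 66 were higher at 0 µM in OE, and all 67 were lower in WT. In KO, where the share was below that of all genes, 26 of 31 were higher. The split by direction is not given for all genes. The median of the cytosolic members was 0.19 in KO, 0.39 in OE and -0.47 in WT, beside 0.15, 0.01 and -0.01 for all genes, and 142 of 149 were above 0 in OE while 148 were below 0 in WT. With libraries rescaled by median-of-ratios factors these medians were 0.02 in KO, 0.36 in OE and -0.45 in WT. With 1 library left out at a time they lay between 0.05 and 0.31 in KO, 0.25 and 0.47 in OE and -0.55 and -0.34 in WT. The lowest value in KO was without KO replicate 3 at 0 µM and the highest without KO replicate 1 at 0 µM, and the lowest in OE was without OE replicate 2 at 0 µM. The counts with an unadjusted p under 0.05 also moved, to 15 in KO without replicate 3 at 0 µM, to 14 in OE without replicate 2 at 0 µM, and to 14 and 16 in WT without replicate 3 at 0 µM and replicate 2 at 200 µM, where 12.7%, 5.4%, 2.93% and 3.94% of all genes had such a p.

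The libraries show this as sums over the cytosolic members. KO leaves had 21510, 24730 and 33900 FPKM at 0 µM, against 28980, 23830 and 21410 FPKM at 200 µM, and the groups overlapped. OE leaves had 28070, 39000 and 28460 FPKM at 0 µM, against 24920, 22200 and 25200 FPKM at 200 µM. WT leaves had 23480, 22350 and 17430 FPKM at 0 µM, against 27870, 35170 and 25190 FPKM at 200 µM. The groups of OE and of WT did not overlap, and lay in opposite orders. Gene by gene, 107 members in OE leaf were higher without overlap, where 8.9% of all genes were, and 89 in WT leaf were lower without overlap, where 7.34% of all genes were. The highest WT library at 200 µM, replicate 2, is 1 of those with low long genes.

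**Figure D3:**
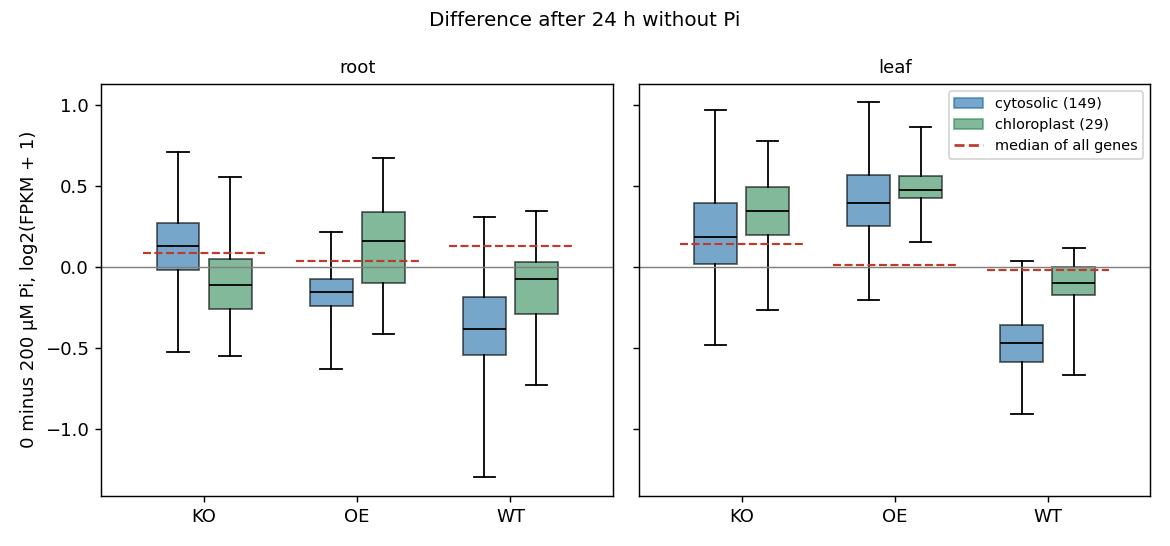
Difference between 0 and 200 µM Pi on the log2(FPKM + 1) scale for the cytosolic (blue, 149) and chloroplast (green, 29) members in root (left) and leaf (right) of each genotype. Boxes span the quartiles, whiskers the full range, and dashed lines mark the median of all genes. In leaf the cytosolic boxes centre on 0.19 in KO, 0.39 in OE and -0.47 in WT, and no member was called in leaf.

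No single member was called in leaf. AT5G20290 had 372, 466 and 632 FPKM in KO leaves at 0 µM, against 1322, 440 and 387 FPKM in KO leaves at 200 µM. It had 524, 685 and 528 FPKM in OE leaves at 0 µM, against 443, 394 and 477 FPKM at 200 µM, and 418, 384 and 298 FPKM in WT leaves at 0 µM, against 518, 744 and 443 FPKM at 200 µM. The value of 1322 FPKM came from KO replicate 1, the library with the most genes at 0, where AT3G04400 also stood apart at 1005 FPKM against 486 and 421 FPKM in the other KO libraries at 200 µM. The adjusted p of AT5G20290 was 0.659 in KO, 0.919 in OE and 0.795 in WT (limma).

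Chloroplast members in leaf showed the same signs in the lines. Their median Pi difference was 0.34 in KO, 0.47 in OE and -0.10 in WT, and all 29 were above 0 in OE. Cytosolic and chloroplast members moved together over the 18 leaf libraries, where their medians correlated with r = 0.63, and over the 18 root libraries, with r = 0.61. The points share libraries and their depth, and the values are a description. Within classes, the level of a cytosolic member correlated with the median of the others at a median r of 0.79 in leaf and 0.77 in root, against 0.30 and 0.54 for mitochondrial members.

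The lines were set against WT at each Pi level, and 0 members were called in leaf (limma). At 200 µM, 0.873% of all genes were called in KO and 0.382% in OE, and 58 members in KO and 25 in OE had an unadjusted p under 0.05, or 23.5% and 10.1% of them, against 13.7% and 8.13% of all genes. Of these 57 and 25 were lower in the line. The cytosolic median was -0.32 in KO and -0.30 in OE, beside -0.10 and -0.0018 for all genes. Both rested on WT replicate 2 at 200 µM: without the libraries with the lowest long genes, the cytosolic medians were -0.17 and -0.16, beside -0.16 and -0.07 for all genes, and 21 and 13 members had an unadjusted p under 0.05, or 8.5% and 5.26%, against 11.7% and 7.74% of all genes. At 0 µM, 0.0364% of all genes were called in KO and 0.0303% in OE, and 18 members in KO and 120 in OE had an unadjusted p under 0.05, against 2.6% and 3.57% of all genes. All of these were higher in the line. With 1 library left out at a time, the count was 4 to 43 in KO and 20 to 121 in OE, with 20 in OE without OE replicate 2 and 35 without WT replicate 3, where 1.89% and 2.28% of all genes had such a p. Same-numbered libraries of OE and WT at 0 µM deviated together, and with that pairing as a block, 127 members had an unadjusted p under 0.05, 126 of them higher in OE, and 0 were called. The share of all genes in that fit is not given, so the 127 cannot be set against the 120 without the block. The cytosolic median at 0 µM was 0.35 in KO (0.18 without KO replicate 3 and 0.20 without WT replicate 3) and 0.60 in OE, and all 149 were above 0 in OE, 102 of them without overlap with WT. Over all members 133 were higher in OE without overlap, where 4.73% of all genes were. These contrasts share their WT and line libraries with the Pi responses and add no independent evidence of them.

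An interaction term, which asks whether a line responded to Pi removal as WT did, also called 0 members in leaf (limma), where 0.127% of all genes were called for KO and 0.352% for OE. At an unadjusted p under 0.05 there were 81 members for KO and 119 for OE, all positive, or 32.8% and 48.2% of them, against 9.26% and 8.24% of all genes. The cytosolic median of this difference was 0.67 for KO and 0.89 for OE, beside 0.12 and -0.0018 for all genes. With 1 library left out at a time these counts were 44 to 97 for KO, the lowest without KO replicate 3 at 0 µM, and 72 to 134 for OE, the lowest without OE replicate 2 at 0 µM, where 7.88% and 7.38% of all genes had such a p. The lowest adjusted p among members was 0.195 for KO and 0.0638 for OE.

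These leaf values were also set beside library composition. With a length trend removed from each library, the cytosolic medians of the Pi response were 0.29 in KO, 0.44 in OE and -0.30 in WT. Without the libraries with the lowest long genes, which left 2 per group in OE at 0 µM and in both WT groups, the median was 0.47 in OE and -0.40 in WT, and the signs in OE and WT were those with all libraries. In OE, 6 members were then called, 4 higher (3 of them cytosolic) and 2 lower, or 2.43% of members, against 2.48% of all genes. In WT, 31 members had an unadjusted p under 0.05, or 12.6%, against 12.5% of all genes. In KO leaf no library was of this kind. Of the interaction, 51 members for KO and 100 for OE had such a p, or 20.6% and 40.5%, against 9.16% and 7.36% of all genes. Across the 18 leaf libraries the cytosolic deviation and the long-gene deviation correlated at r = -0.27 (Spearman's rho -0.17), and across the 18 root libraries at r = -0.76 (rho -0.68). Without the 2 libraries farthest from the median, r was 0.0067 in leaf and -0.67 in root. The libraries differ in depth and group, and these values are a description. The part of library composition in the results was not otherwise tested.

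**Figure D4:**
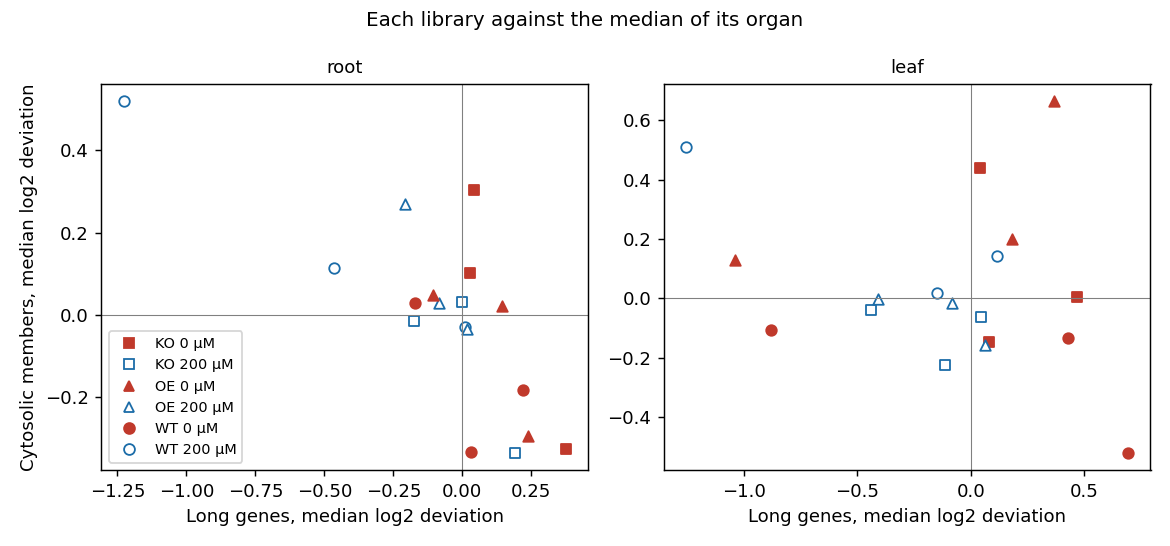
Median log2 deviation from the organ's median of the 149 cytosolic members against that of genes with over 4000 coding bases, 1 point per library (filled: 0 µM, open: 200 µM; squares KO, triangles OE, circles WT). In root, WT at 200 µM replicate 2 lies at -1.23 for long genes and 0.52 for cytosolic members, and in leaf the 18 libraries show a weaker relation.

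In root the cytosolic sums hardly separated Pi levels. KO roots had 112500, 84300 and 131800 FPKM at 0 µM, against 109600, 83600 and 106600 FPKM at 200 µM. OE roots had 108700, 107100 and 85300 FPKM at 0 µM, against 127100, 102900 and 108300 FPKM at 200 µM. WT roots had 108900, 91720 and 83290 FPKM at 0 µM, against 103500, 162600 and 122900 FPKM at 200 µM. All 3 pairs of groups overlapped. The cytosolic median was 0.13 in KO, -0.15 in OE and -0.38 in WT, beside 0.09, 0.04 and 0.13 for all genes, and with a length trend removed these values were 0.26 in KO, -0.06 in OE and -0.09 in WT. With 1 library left out at a time they lay between 0.01 and 0.30 in KO, -0.23 and -0.04 in OE, and -0.50 and -0.22 in WT. The value of 0.01 in KO came without replicate 3 at 0 µM and also without replicate 2 at 200 µM, 0.08 without replicate 1 at 0 µM, and 0.30 without replicate 2 at 0 µM. In OE, -0.04 came without replicate 3 at 0 µM and -0.06 without replicate 1 at 200 µM, and in WT, -0.22 without replicate 2 at 200 µM.

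In the root Pi response, 3 members were called in KO, where 3.53% of all genes were, 0 in OE, where 0.235% were, and 2 in WT, where 1.96% were (limma over 19166 genes). Unadjusted, 31 members in KO, 3 in OE and 55 in WT had a p under 0.05, or 12.6%, 1.21% and 22.3% of them, against 19.7%, 5.93% and 20.1% of all genes. Of the cytosolic members 0 were called, and 16 in KO, 0 in OE and 41 in WT had an unadjusted p under 0.05. With 1 library left out at a time, 11 to 54 members in KO, 2 to 6 in OE and 21 to 92 in WT did. The share of all genes in those fits is not given. The counts thus show only their dependence on single libraries. The WT count of called members rested on its libraries at 200 µM: without replicate 1, which left the 2 libraries with the lowest long genes of that group, 40 members were called, or 16.2%, against 9.49% of all genes. Of these 27 were cytosolic and lower. Without any 1 of the other 5 WT root libraries 1 member was called, or 0.405%, against 0.157% to 2.26% of all genes.

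The called members were not cytosolic ribosomal proteins in the fit as reported. With a length trend removed, 7 members were called in KO, 4 of them cytosolic and higher, or 2.83% of members against 4.58% of all genes, and 2 in WT, 1 of them cytosolic and higher. For WT, the share of all genes in that fit is not given. Median-of-ratios scaling gave 3 in WT, 1 of them cytosolic and lower, where 342 of 19166 genes were called. AT1G53560, an L18ae family member that only shares a name, had 21.6, 19.2 and 23.2 FPKM in KO roots at 0 µM, against 39.1, 35.5 and 42.2 FPKM at 200 µM. It had 19.1, 21.01 and 11.5 FPKM in OE roots at 0 µM, against 27.7, 30.4 and 30.5 FPKM at 200 µM, and 25.5, 20.1 and 19.7 FPKM in WT roots at 0 µM, against 48.7, 53.5 and 65.7 FPKM at 200 µM. Every library at 0 µM was lower than every one at 200 µM of its genotype. On the log2 scale the difference was -0.84 ± 0.20 in KO (adjusted p of 0.0228, limma), -0.79 ± 0.20 in OE (adjusted p of 0.169) and -1.32 ± 0.20 in WT (adjusted p of 0.00345). The WT call held without any 1 of the 6 WT root libraries, and the KO call was lost when any 1 of the 6 KO root libraries was left out. AT4G26060, of the same family, had 64.4, 91.5 and 49.8 FPKM in KO roots at 0 µM, against 124, 114 and 124 FPKM at 200 µM (adjusted p of 0.0442, limma), a call that was lost in 5 of the 6 fits with 1 KO root library left out.

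The other 2 were of bacterial type. AT5G64670, of the L18e/L15 superfamily, rose to 65.2, 61.9 and 71.0 FPKM in KO roots at 0 µM, against 46.8, 35.4 and 38.5 FPKM at 200 µM (log2 0.71 ± 0.16, adjusted p of 0.0160, limma). In WT roots it averaged 44.1 ± 5.28 FPKM at 0 µM and 47.8 ± 5.01 FPKM at 200 µM (SD, n = 3 each), with an adjusted p of 0.723. The KO call was lost in 4 of the 6 fits with 1 KO root library left out. AT1G16740, annotated L20, fell to 74.8, 80.5 and 70.7 FPKM in WT roots at 0 µM, against 92.9, 133 and 159 FPKM at 200 µM (log2 -0.73 ± 0.18, adjusted p of 0.0425). It was not called with a length trend removed, at -0.37, nor in 5 of the 6 fits with 1 WT root library left out.

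Against WT in root, 0 members were called in any of the 4 comparisons (limma). At 200 µM, 0.0313% of all genes were called in KO and 0.0417% in OE, and 53 and 5 members had an unadjusted p under 0.05, or 21.5% and 2.02%, against 13.1% and 12.3% of all genes. At 0 µM, 0.0522% of all genes were called in KO and 0.0678% in OE, and 29 and 10 members had an unadjusted p under 0.05, or 11.7% and 4.05%, against 12.2% and 7.13%. With 1 library left out at a time these were 21 to 87 in KO and 2 to 43 in OE at 200 µM, each highest without WT replicate 1, and 7 to 55 in KO and 4 to 14 in OE at 0 µM. The share of all genes is not given for these ranges, which show only the dependence on single libraries. Without WT root replicate 1 at 200 µM, 24 members were called in KO and 3 in OE, or 9.72% and 1.21%, against 4.81% and 1.88% of all genes. The interaction called 0 members and 0% of all genes for either line, and 64 members for KO and 10 for OE had an unadjusted p under 0.05, or 25.9% and 4.05%, against 11.7% and 4.82% of all genes. Without that same library the interaction called 5 members for KO, or 2.02%, against 0.798% of all genes.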

How the data were processed

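RNA was measured in 36 libraries by strand-specific (dUTP) poly(A) RNA-seq. Trimming with Trimmomatic, alignment with HISAT2 2.2.1 and the use of DESeq2 and the TAIR10 build are named in the submitters' processing notes. The authors deposited 1 table of 27444 genes with 36 columns of values per library. The unit of these deposited values is taken to be FPKM, since value times coding length summed to 974165 to 1016893 per library, and it is inferred, not stated in the sources used here. The other 24 columns of that table were not used.

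Depth was recovered from the steps of low values, which were whole reads within 0.1 read for 92.35% to 100% of values. It limits precision by counting error only.

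The members and gene lists were chosen with earlier results of these data known, and classes were assigned by hand from annotation and RefSeq notes. Differences were fitted with limma 3.58.1 (R 4.3.3) with a trend on log2(FPKM + 1), which understates changes of low genes. Genes whose mean over the fitted libraries reached 1 FPKM entered. The fits used 18 libraries within an organ and all 36 for root against leaf, with Benjamini-Hochberg adjustment over all genes of a comparison and a threshold of 0.05. The plan allowed for read counts in place of FPKM, and a count test was not run. The procedure was checked on simulated data with independent noise for each gene. These held no effect shared by the genes of a library, so the check does not cover such effects. The same replicate number was not taken as a pairing, because numbers mark no shared batch in the labels and same-numbered libraries deviated together, at a correlation over 0.1 in every pair, in 1 pair of groups alone, OE and WT at 0 µM in leaf (correlations of 0.72, 0.54 and 0.17). For that comparison a fit with this pairing as a block was added after seeing the data.

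Members are named by level in each class, by the largest called changes without overlap, as names that are no ribosomal protein, as families that differ in direction, or at the 20 FPKM limit. Members singled out from the libraries at hand, such as family extremes, were chosen after their values were seen. The alternatives were a pseudocount of 0.1, no filter, median-of-ratios scaling, a replicate block, removal of a length trend, the groups of a comparison alone, each library left out, and the libraries with the lowest long genes left out.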

Additional observations from a re-analysis of the deposited data

Results flagged for a closer look

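The summed level of the 149 cytosolic members in leaf differed between Pi levels in opposite directions in OE and WT. All 3 OE libraries at 0 µM (28070, 39000 and 28460 FPKM) lay above all 3 at 200 µM (24920, 22200 and 25200 FPKM), while all 3 WT libraries at 0 µM (23480, 22350 and 17430 FPKM) lay below all 3 at 200 µM (27870, 35170 and 25190 FPKM). The log2 ratio of the group means was 0.40 in OE and -0.48 in WT, a difference of 0.88. The difference of the sums was not tested. Gene by gene the interaction called 0 members (limma), with 119 at an unadjusted p under 0.05, or 48.2%, against 8.24% of all genes. The highest WT library, replicate 2 at 200 µM, had low long genes (-1.25). Without the libraries of that kind, the share of members with such a p in the WT response was near that of all genes. For the interaction it stayed above that of all genes.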

How the results depend on the processing

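For counts of called members, 155 values under an alternative other than leaving out 1 replicate stayed within 1.5 times the reported count and 6 did not, and the same held for 149 and 19 values with 1 replicate left out. The libraries with the lowest long genes, an alternative chosen after seeing the data, gave 6 members when left out in the OE leaf Pi response (0 with all) and 1 in the WT root Pi response (2 with all). With the groups of the comparison alone, the OE minus WT interaction in leaf called 2 (0 in the full fit) and the WT root Pi response 0. The share of all genes in those fits is not given. A length trend removed gave 7 in the KO root Pi response (3 without). The cause was not tested. The labels give shared replicate numbers but no shared batch. With a replicate block, the WT root Pi response called 1 member and the KO root Pi response 2. Of all 19166 genes, that fit called 162 in WT and 489 in KO. Root against leaf called 238 to 243 members with a block, where the share of all genes is not given. A block in OE and WT at 0 µM in leaf alone, added after seeing the data, called 0 members. Leaving out 1 library at a time gave 0 to 1 member in leaf for the KO and the OE Pi response, for KO against WT at 200 µM and for OE minus WT. In root it gave 1 to 40 for the WT Pi response, 0 to 2 for the KO Pi response, 0 to 24 for KO and 0 to 3 for OE against WT at 200 µM, and 0 to 5 for KO minus WT, each highest value in comparisons with WT being without WT replicate 1 at 200 µM. The share of all genes is not given here for these ranges, which show only the dependence on single libraries. For root against leaf the count of called members was within 1.5 times under every alternative run. Direction did not reverse for any of the 5 calls of single members in the root Pi response, but 9 of their values under other settings and 20 with 1 library left out missed the threshold. The depth of single libraries, 6680000 to 13190000 reads in leaf and 2070000 to 11780000 in root, limits precision, and its part in these counts was not tested.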
